A study of Mus musculus with 21 samples.

Results

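Retinoic acid (RA) and the Notch pathway were examined together in mouse embryonic stem cells (ESCs) through 10 genes: the receptors Notch1, Notch2, Notch3 and Notch4, the ligands Dll1, Dll3, Jag1 and Jag2, and the target genes Hes1 and Hey1. The genes were listed by name, but with earlier results of these data known. They came out of 32285 genes in the tables of a time course and 25239 in the tables of a second set. Each had 1 row in all 21 libraries. The time course held 5 groups of 3 wild-type libraries. ESC_0h was the starting culture, grown on gelatin in serum with LIF, the MEK inhibitor PD0325901 and the GSK3 inhibitor CHIR99021, the pair known as 2i. The groups noRA_12h and noRA_24h were differentiated without RA for 12 h and 24 h, and RA_12h and RA_24h were kept with 2 µM RA for the same times. The treatment label gives RA, or withdrawal of LIF and 2i, as the means of starting differentiation. Whether the RA cultures also lost LIF and 2i is left unsaid. An effect of RA and an effect of the medium therefore cannot be told apart between these groups. The second set held 3 wild-type libraries (WT_RA24h) and 3 libraries of cells with a knockout of Cyp26a1 (KO_RA24h), both after 24 h of RA. Cyp26a1 encodes an enzyme that degrades RA. The labels name no ESC line and no knockout clone, and leave unsaid if replicates came from separate cultures. The spread behind every p-value is thus that of these libraries and may be technical.

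Notch receptors sit in the cell membrane and are activated by ligands of the Delta-like and Jagged families on neighbouring cells. Cleavage by ADAM proteases and then by γ-secretase frees the intracellular part of the receptor, which enters the nucleus, joins the DNA-binding protein RBPJ and a Mastermind coactivator, and switches on repressor genes of the Hes and Hey families. The pathway is best known for decisions between neighbouring cells, as in the nervous system, the segmenting mesoderm and blood vessels, and ESCs carry its receptors and ligands before any lineage choice.

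Promoter sequences are shown for Dll1 and Notch4, the members whose levels moved most in the time course, and come from RefSeq on GRCm38.p6. The table used held entries for 8 of the 10 members, in 9 windows of 250 bases before a transcript start, because Dll1 had 2 starts; Hes1 and Hey1 were not matched. Only bases outside annotated exons of the same gene are printed, except for 1 stretch of 30 bases. The first sequence is the stretch upstream of the distal Dll1 start (chr17:15376933.0-15377182.0, minus strand), the second is the 30-base stretch before the proximal Dll1 start (chr17:15375915.0-15375944.0, minus strand), and the third lies upstream of Notch4 (chr17:34564045.0-34564267.0, plus strand). Capitals mark AGGTCA, a hexamer of the kind bound by RA receptors and their RXR partners.
Dll1 distal: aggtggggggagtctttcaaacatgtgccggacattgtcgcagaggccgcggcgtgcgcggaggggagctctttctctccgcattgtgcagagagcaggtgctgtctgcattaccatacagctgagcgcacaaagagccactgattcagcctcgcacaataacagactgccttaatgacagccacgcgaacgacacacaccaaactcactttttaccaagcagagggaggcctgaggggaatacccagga
Dll1 proximal: tctgaccagggcAGGTCAcgggagagcacc
Notch4: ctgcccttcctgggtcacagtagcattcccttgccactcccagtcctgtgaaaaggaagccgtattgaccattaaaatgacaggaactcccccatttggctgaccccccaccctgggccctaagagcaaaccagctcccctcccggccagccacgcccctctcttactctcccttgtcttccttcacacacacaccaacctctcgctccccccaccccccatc
The AGGTCA of Dll1 lay 109 to 104 bases before the RefSeq start, at 15375927 to 15375932 on chromosome 17, and GENCODE M21 places the same bases in the 5′ UTR of a Dll1 transcript that starts upstream of it. It was the match in 1 of the 9 member windows, and 14.02% of 32851 windows of the same length held AGGTCA on either strand. A second hexamer form, AGTTCA, was in 0 of 9 member windows and 11.84% of all. Further forms of the hexamer were not searched for or marked, so their absence from a window is not shown. The repeat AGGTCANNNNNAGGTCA, which holds 2 copies of the hexamer, was in 0 of 9 and 0.01% of all. The RBPJ core TGGGAA was in 0 of 9 and 21.59% of all. By GENCODE M21 the windows of Dll3 and Jag2 lay in exons of the same gene over all 250 bases. The proximal Dll1 window did so over 153 bases and the Jag1 window over 124. Counts over the 9 windows are therefore not counts over 9 stretches of upstream sequence. Each match is a run of letters, not a measured site.

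On mm10, by the time course tables, Notch1 lies on chromosome 2 from 26457903 to 26516663, Notch2 on 3 from 98013527 to 98150361, Notch3 on 17 from 32120820 to 32166852 and Notch4 on 17 from 34564268 to 34588503. Dll1 lies on 17 from 15367354 to 15376872, Dll3 on 7 from 28293553 to 28302238, Jag1 on 2 from 137081456 to 137116644 and Jag2 on 12 from 112907819 to 112929776. Hes1 lies on 16 from 30064384 to 30067796 and Hey1 on 3 from 8663359 to 8667256. Values are whole-gene levels that sum over exons. Notch1, Notch3, Notch4 and Dll1 overlap genes on the other strand, and strand is not stated, so reads of such pairs could not be told apart. The partner 0610009E02Rik of Notch1 ranged between 0.290 and 0.775 TPM in the time course libraries. For Gm17276, the partner of Notch3, the range there was 0.0125 to 0.776 TPM. No level was found for Gm20462, the partner of Notch4, or for A930024N18Rik, the partner of Dll1, so their part could not be read.

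Time course libraries held an estimated 2.96 to 3.91 gigabases of aligned sequence each, and those of the second set 2.72 to 3.24. Cyp26a1, the targeted gene, stood at 595 ± 10.8 TPM (SD, n = 3) in WT_RA24h and 4.52 ± 0.458 in KO_RA24h, as the labels say. Pou5f1, Nanog and the other ESC markers, 6 in all, summed to 4090 to 4258 TPM in ESC_0h, 4429 to 4833 in noRA_12h and 4575 to 4672 in RA_12h. At 24 h they summed to 3641 to 3673 TPM in noRA_24h and 2971 to 3366 in RA_24h. A shared axis of within-group differences held 67.2% of the within-group variance of the time course, and on it RA_24h replicate 2 (score -51.6) lay far from replicates 1 (16.9) and 3 (29.5), and noRA_12h replicate 1 (-31.8) far from replicates 2 (43.5) and 3 (13.5). In the second set KO_RA24h replicate 3 (-35.6) lay apart from the other 2 (22.7 and 15.3). Results that turn on these libraries are given with and without them. Markers of primitive endoderm and endoderm (Gata6, Gata4, Sox17, Foxa2, Pdgfra and Dab2) moved with RA: their summed level was 1.35 to 3.05 TPM in noRA_12h, 19.5 to 22.9 in RA_12h, 2.32 to 2.61 in noRA_24h and 104.5 to 121.5 in RA_24h. Trophoblast markers summed to 11.05 to 14.1 TPM in noRA_12h, 21.7 to 24.4 in RA_12h, 10.3 to 11.9 in noRA_24h and 15.9 to 19.1 in RA_24h. The sum of the fibroblast or feeder markers went the other way, at 11.4 to 14.3, 4.53 to 7.76, 13.8 to 16.6 and 4.95 to 5.06 TPM in the same order of groups. Of the 5 markers in that list, 2, 1, 1 and 2 had a mean of at least 1 TPM in those groups. The part of such cells in the Notch results was not tested, and in bulk RNA fewer cells of a type and less RNA per cell cannot be told apart.

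Of the 10 members, 6 had their highest mean in ESC_0h: Notch1, Notch2, Notch3, Jag1, Hes1 and Hey1. For Notch1 and Notch2 the ESC_0h libraries overlapped those of the next group. The share of all genes with their highest mean in ESC_0h was not computed, so the count is a description only. The highest mean of Notch4 was in RA_12h, those of Dll1 and Dll3 in noRA_24h, and that of Jag2 in RA_24h. By the span of group means on log2(TPM + 1), Dll1 (2.52), Notch4 (2.14) and Hes1 (1.88) varied most, and Notch2 (0.31) and Dll3 (0.28) least. For Notch2 and Dll3 every pair of neighbouring groups in the order of levels overlapped. The plot of levels by library shows these patterns.

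**Figure D1:**
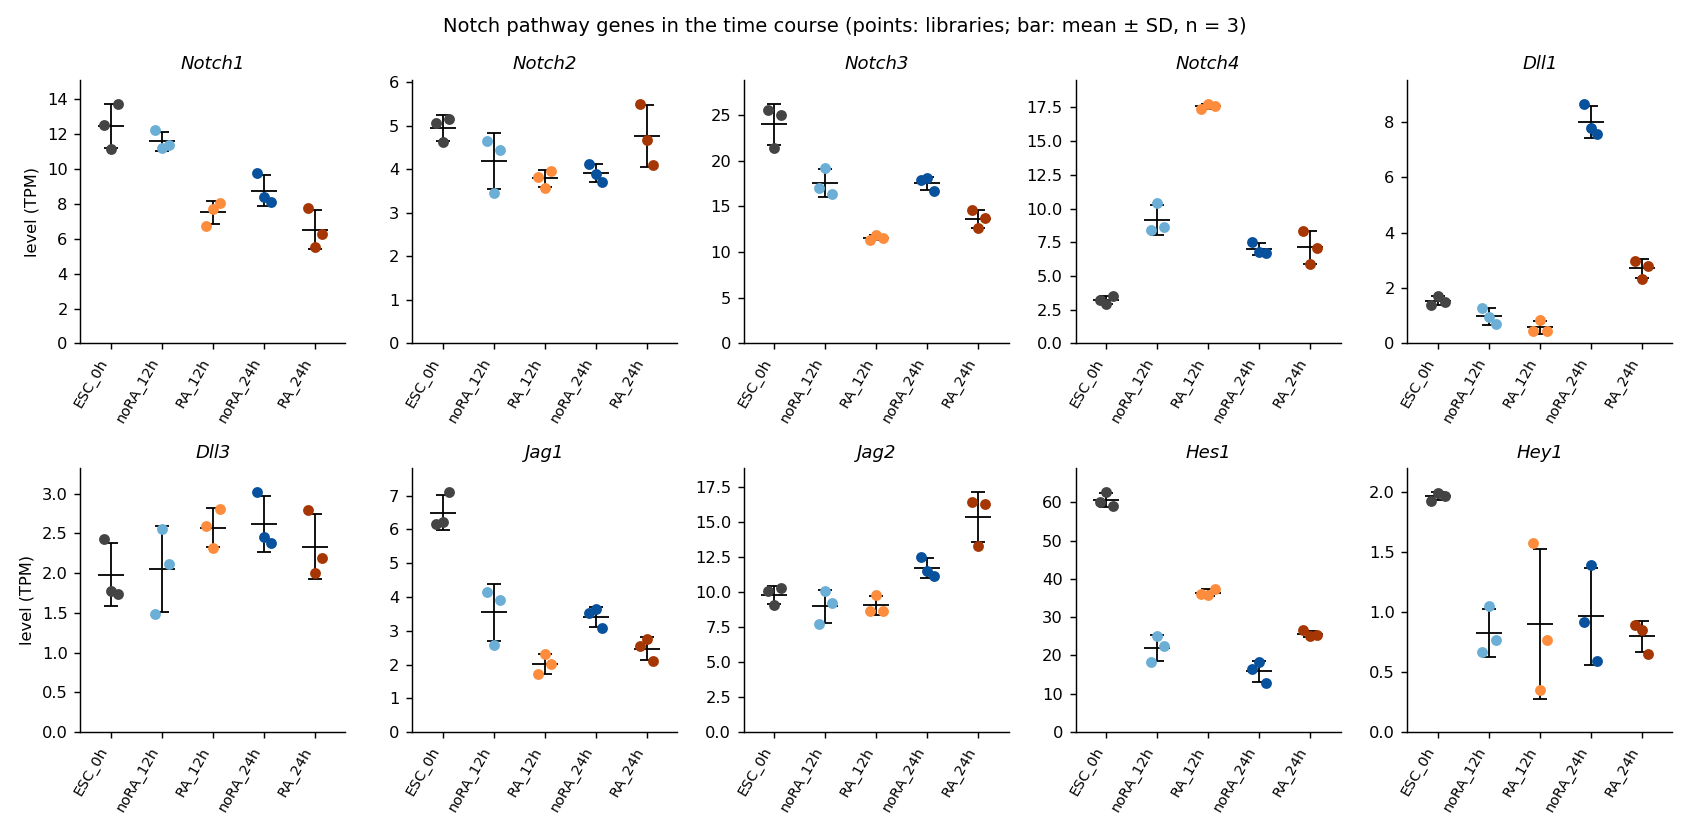
Levels of the 10 members in the 15 time course libraries, in TPM on linear axes that start at 0; points are libraries and bars are the mean ± SD of 3 libraries. Notch4 peaks in RA_12h at 17.4 to 17.8 TPM, Dll1 in noRA_24h at 7.56 to 8.66 TPM, and Hes1 is highest in ESC_0h at 59.1 to 62.6 TPM.

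Each comparison was a limma contrast on log2(TPM + 1), with a Benjamini-Hochberg adjusted p below 0.05 as the threshold; differences below are on that scale, which understates changes of low genes, and their errors are standard errors (SE). All 10 members were tested among 13948 genes of the time course. From ESC_0h to noRA_12h, 1 member rose and 5 fell, where 42.5% of all genes passed, 22% upward and 20.4% downward; the median difference was -0.29 over members and -0.04 over all genes. From ESC_0h to noRA_24h, 2 rose and 5 fell, where 51.9% of genes passed, 25.4% upward and 26.5% downward, with medians of -0.35 and 0.03. With RA at 12 h, 2 members were higher and 3 lower than in noRA_12h, where 17.4% of genes passed, 10.2% upward and 7.19% downward, with medians of -0.05 and -0.01. With RA at 24 h, 2 were higher and 3 lower than in noRA_24h, where 35.2% passed, 22.8% upward and 12.5% downward, with medians of -0.12 and 0.02. The RA effect differed between 24 h and 12 h for 2 members, both in the lower direction, where 6.85% of genes passed, 4.17% upward and 2.68% downward; 3 of 10 members had an unadjusted p below 0.05. The 2 comparisons from ESC_0h share those libraries, and each noRA group serves both as the end of one comparison and the control of another.

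**Figure D2:**
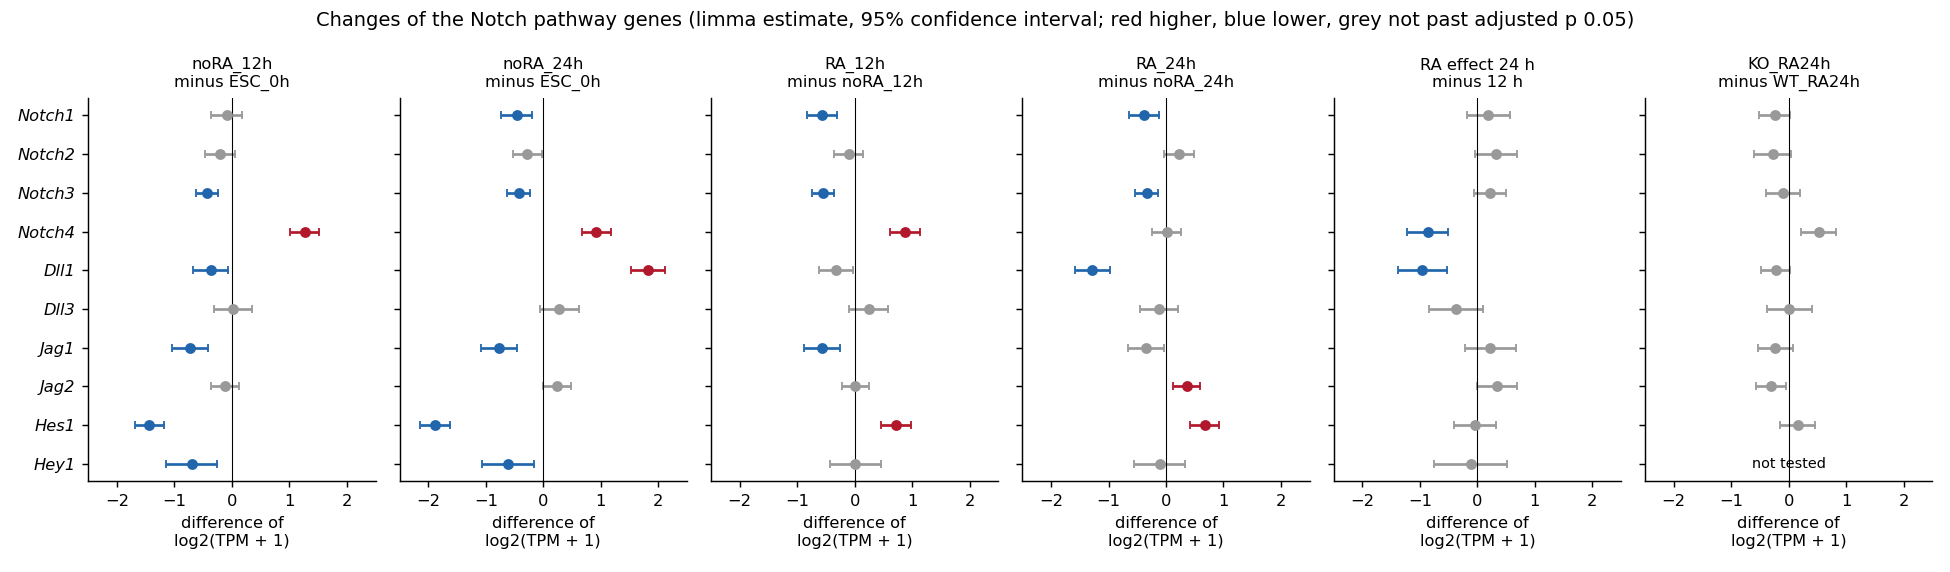
Differences of the members on log2(TPM + 1) in each comparison, with 95% confidence intervals from limma; coloured points passed the adjusted threshold and grey points did not. Hes1 lies below 0 from ESC_0h to both noRA groups and above 0 with RA at both times, while Notch4 lies above 0 with RA at 12 h (0.88) and near 0 at 24 h (0.01).

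Among the receptors, Notch4, best known from endothelial cells, had the widest span. Its levels were 3.23, 2.93 and 3.50 TPM in ESC_0h, 8.43, 10.4 and 8.61 in noRA_12h, and 17.4, 17.8 and 17.6 in RA_12h. In noRA_24h they were 7.53, 6.76 and 6.72 TPM, and in RA_24h 8.33, 5.91 and 7.11. All RA_12h libraries lay above every other library, all ESC_0h libraries lay below, and the 24 h groups overlapped. Notch4 rose 2.84-fold in TPM from ESC_0h to noRA_12h (log2 difference 1.26, SE 0.12, limma adjusted p = 1.7e-06) and stayed higher than ESC_0h in noRA_24h (0.92, SE 0.12, adjusted p = 2.25e-05). It rose a further 1.92-fold with RA at 12 h (0.88, SE 0.12, adjusted p = 1.55e-04). At 24 h the difference with RA was 0.01 (95% interval -0.25 to 0.27, adjusted p = 0.95), and the test of the RA effect at 24 h minus that at 12 h gave -0.87 (SE 0.17, adjusted p = 0.00678). That value was -0.76 (adjusted p = 0.00965) without RA_24h replicate 2, and with quantile normalization it was -0.88 and did not pass (adjusted p = 0.0918).

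Endothelial markers were read beside Notch4. The 4 markers Cdh5, Tek, Esam and Cldn5 summed to 1.65 to 2.17 TPM in ESC_0h, 13.4 to 15.8 in noRA_12h, 12.5 to 14.4 in RA_12h, 12.9 to 15.25 in noRA_24h and 9.60 to 12.6 in RA_24h. Their sum thus overlapped between noRA_12h and RA_12h, where Notch4 did not. Esam held most of it, at 7.01 to 10.2 TPM outside ESC_0h, and Cdh5 reached at most 0.585 TPM in any time course library. Of the 4 markers, 1 had a mean of at least 1 TPM in ESC_0h and 2 did in RA_24h. In noRA_12h, RA_12h and noRA_24h it was 3 of the 4, namely all but Cdh5. The part of such cells in the level of Notch4 was not tested.

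Notch3, the receptor with the highest level in ESCs, went the other way. It stood at 25.5, 21.4 and 25.0 TPM in ESC_0h, 17.0, 19.2 and 16.4 in noRA_12h, 11.3, 11.9 and 11.5 in RA_12h, 17.8, 18.1 and 16.7 in noRA_24h, and 14.6, 12.7 and 13.7 in RA_24h. The ESC_0h libraries lay above all others, the noRA groups overlapped each other, and both RA groups lay below them. Notch3 fell from ESC_0h to noRA_12h (log2 difference -0.43, SE 0.09, limma adjusted p = 0.00164) and to noRA_24h (-0.43, SE 0.09, adjusted p = 0.00129). The first of these calls ended with quantile normalization (-0.36, adjusted p = 0.0557), and the second with a correction for GC content and length, which was chosen after seeing the data (-0.09, adjusted p = 0.426). With RA, Notch3 was lower at 12 h (-0.56, SE 0.09, adjusted p = 6.52e-04) and at 24 h (-0.34, SE 0.09, adjusted p = 0.0101). The call at 24 h ended with quantile normalization (-0.33, adjusted p = 0.0851), and the RA effects did not differ past the threshold between the times (0.22, 95% interval -0.06 to 0.49, adjusted p = 0.389).

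Notch1, the receptor studied most widely in development, changed in the same direction with RA. Its levels were 12.5, 11.2 and 13.7 TPM in ESC_0h, 12.2, 11.2 and 11.4 in noRA_12h, 6.75, 7.71 and 8.08 in RA_12h, 9.79, 8.38 and 8.11 in noRA_24h, and 7.75, 5.53 and 6.30 in RA_24h. ESC_0h and noRA_12h overlapped and lay above the other groups. Notch1 fell with RA at 12 h (log2 difference -0.57, SE 0.12, limma adjusted p = 0.0053; -0.46 and 0.0943 with quantile normalization, which ended the call), and its difference from ESC_0h to noRA_12h was -0.09 (adjusted p = 0.567). It was lower in noRA_24h than in ESC_0h (-0.47, SE 0.12, adjusted p = 0.00606; -0.14 and 0.351 with the GC and length correction). At 24 h it was lower with RA (-0.38, SE 0.12, adjusted p = 0.0276), a call that ended without RA_24h replicate 2 (-0.28, adjusted p = 0.0704), RA_24h replicate 3 or noRA_24h replicate 1, with quantile normalization and with only the groups compared.

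Notch2, a receptor widely expressed outside ESCs too, passed in no comparison of the time course in the model as described. It ranged from 3.44 TPM in a noRA_12h library to 5.50 TPM in a RA_24h library. The RA effect at 24 h minus that at 12 h was 0.33 (95% interval -0.04 to 0.69, limma adjusted p = 0.313). Its largest difference between groups compared was -0.28 from ESC_0h to noRA_24h (95% interval -0.53 to -0.02, limma adjusted p = 0.0706), which passed without a trended prior (adjusted p = 0.044) and with the within-group axis (-0.31, adjusted p = 0.0267).

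The makeup of the receptor pool, taken as each receptor's share of their summed TPM, shifted more than the pool did. Summed receptor levels were 44.6 ± 3.94 TPM (SD, n = 3) in ESC_0h, 42.5 ± 1.78 in noRA_12h, 40.5 ± 1.01 in RA_12h, 37.2 ± 2.04 in noRA_24h and 32.0 ± 3.79 in RA_24h. Notch3 held 53.7% ± 1.18 of the sum in ESC_0h and 28.6% ± 0.596 in RA_12h. Notch4 held 7.22% ± 0.222 in ESC_0h, 21.5% ± 1.81 in noRA_12h and 43.5% ± 0.716 in RA_12h, where it was the largest share. At 24 h the Notch4 share was 18.8% ± 0.520 without RA and 22.1% ± 1.37 with it. These shares are descriptions and carry no test.

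**Figure D3:**
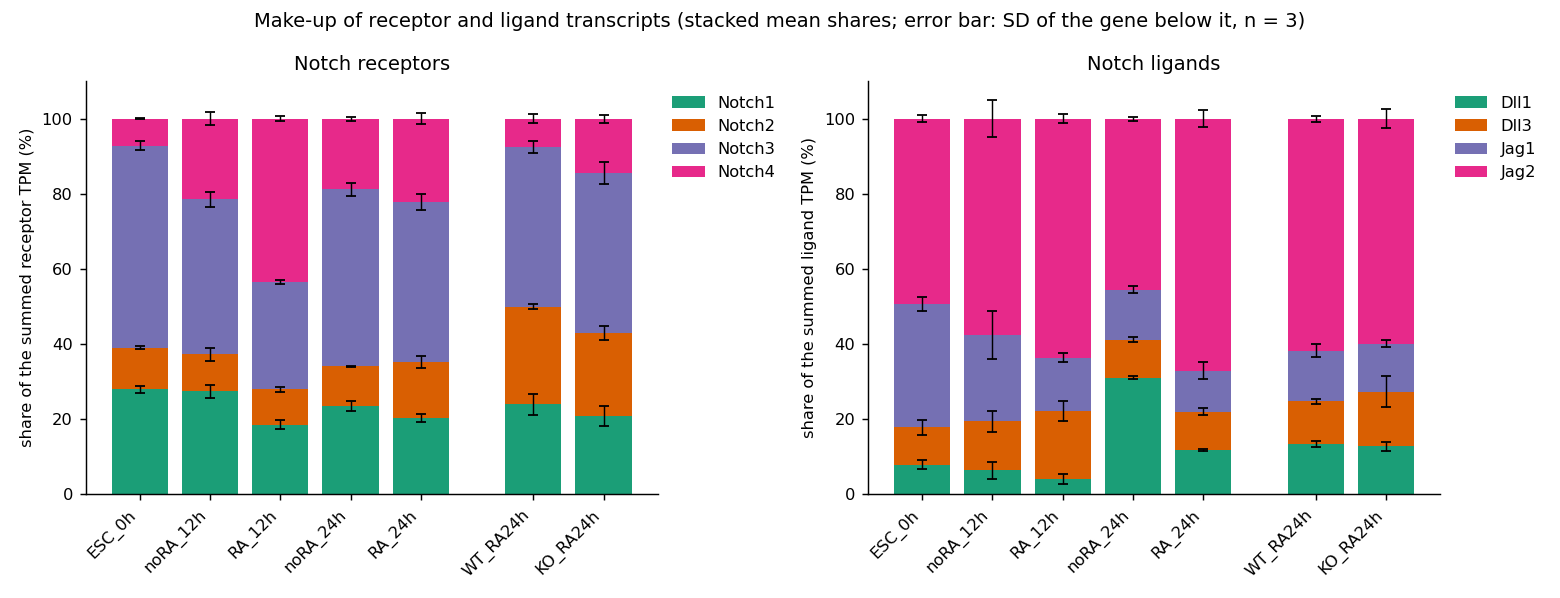
Shares of the summed TPM held by each receptor (left) and each ligand (right) in the 7 groups; bars are means of 3 libraries and error bars are SDs of the share below them. Notch4 holds 43.5% of receptor TPM in RA_12h, and Dll1 holds 31.0% of ligand TPM in noRA_24h against 11.8% in RA_24h.

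Of the ligands, Dll1, a Delta-like activator best known from neural and somite patterning, moved most. Its levels were 1.40, 1.72 and 1.5 TPM in ESC_0h, 1.30, 0.938 and 0.705 in noRA_12h, and 0.457, 0.840 and 0.439 in RA_12h. In noRA_24h they were 8.66, 7.77 and 7.56 TPM, and in RA_24h 2.99, 2.34 and 2.80. The 3 noRA_24h libraries lay above every other library, the RA_24h libraries came next, and the 12 h groups overlapped each other below ESC_0h. Dll1 rose 5.18-fold in TPM from ESC_0h to noRA_24h (log2 difference 1.82, SE 0.14, limma adjusted p = 1.71e-07), and at 24 h it was 2.95-fold lower with RA than without (-1.28, SE 0.14, adjusted p = 1.13e-05). At 12 h the difference with RA was -0.33 (95% interval -0.63 to -0.02, adjusted p = 0.139), and it passed with the GC and length correction (-0.41, adjusted p = 0.047). The RA effect at 24 h minus that at 12 h was -0.96 (SE 0.20, adjusted p = 0.0101), and with a pseudocount of 0.1 it was -0.85 and did not pass (adjusted p = 0.204).

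The call of a lower Dll1 in noRA_12h than in ESC_0h (log2 difference -0.37, SE 0.14, limma adjusted p = 0.0479) was weak. It ended in 7 of the other settings and without any 1 of 5 of the 6 libraries, with adjusted p up to 0.189 without noRA_12h replicate 3. Markers of primitive streak and paraxial mesoderm, where Dll1 is active in embryos, summed to 2.25 to 3.43 TPM in noRA_24h and 3.89 to 5.40 in RA_24h. Among them Msgn1 was listed at 0 in all 6 of these libraries. Neural markers summed to 2.07 to 2.97 TPM in noRA_24h and 6.64 to 8.03 in RA_24h, with Neurog2 and Olig2 listed at 0 in noRA_24h. Both sums were lower in the group where Dll1 was higher. The sum of the fibroblast or feeder markers was higher there, at 13.8 to 16.6 TPM in noRA_24h and 4.95 to 5.06 in RA_24h. Only 1 of these 5 markers had a mean of at least 1 TPM in noRA_24h, against 2 in RA_24h, so that sum does not stand for the list. The part of any of these lists in the level of Dll1 was not tested.

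Jag1, a Jagged ligand, fell as the cells left the starting culture. It stood at 6.17, 6.22 and 7.10 TPM in ESC_0h, 4.15, 2.58 and 3.92 in noRA_12h, 1.73, 2.32 and 2.03 in RA_12h, 3.53, 3.64 and 3.08 in noRA_24h, and 2.54, 2.76 and 2.11 in RA_24h. ESC_0h lay above all other groups, and each RA group lay below the noRA group of its time. Jag1 fell from ESC_0h to noRA_12h (log2 difference -0.74, SE 0.15, limma adjusted p = 0.00109) and to noRA_24h (-0.76, SE 0.15, adjusted p = 6.32e-04). With RA at 12 h it was lower (-0.57, SE 0.15, adjusted p = 0.0145), and the call ended without noRA_12h replicate 1 (-0.48, adjusted p = 0.0684), noRA_12h replicate 3 or RA_12h replicate 1, and with only the groups compared. At 24 h its difference with RA was -0.35 (95% interval -0.66 to -0.04, adjusted p = 0.0791), and without RA_24h replicate 2 it was -0.41 and passed (adjusted p = 0.0487), as it did with quantile normalization (-0.39, adjusted p = 0.0421) and the GC and length correction (-0.30, adjusted p = 0.0349).

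Jag2, the second Jagged ligand, was the ligand with the highest level in every group. Its levels were 10.1, 9.08 and 10.3 TPM in ESC_0h, 7.72, 10.1 and 9.20 in noRA_12h, 8.67, 9.83 and 8.69 in RA_12h, 12.5, 11.5 and 11.2 in noRA_24h, and 16.5, 13.3 and 16.3 in RA_24h. Both 24 h groups lay above the earlier ones, and RA_24h lay above noRA_24h. Jag2 was higher with RA at 24 h (log2 difference 0.36, SE 0.11, limma adjusted p = 0.0248), but the call depended on settings: it was 0.10 (adjusted p = 0.442) with the GC and length correction, and it ended with median-of-ratios scaling, quantile normalization or only the groups compared, and without noRA_24h replicate 2 or 3 or RA_24h replicate 1 or 3. Without RA_24h replicate 2 the difference was 0.45 (adjusted p = 0.00609). From ESC_0h to noRA_24h it differed by 0.24 (adjusted p = 0.0943), and this passed with the within-group axis (0.31, adjusted p = 0.00466) and the GC and length correction (0.55, adjusted p = 2.65e-04).

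Dll3, a Delta-like protein known to restrain rather than activate Notch in the same cell, passed in no comparison of the limma model as described. Its group means ran from 1.98 ± 0.391 TPM (SD, n = 3) in ESC_0h to 2.61 ± 0.350 in noRA_24h. Its difference with RA was 0.24 at 12 h (limma adjusted p = 0.322) and -0.12 at 24 h (adjusted p = 0.555). With the GC and length correction it passed at 24 h with RA (-0.44, adjusted p = 0.00875) and from ESC_0h to noRA_24h (0.54, adjusted p = 0.00155, against 0.28 and 0.145), the second also with the within-group axis as a covariate (0.36, adjusted p = 0.0236).

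Summed over the 4 ligands, levels were 19.8 ± 0.931 TPM (SD, n = 3) in ESC_0h, 15.6 ± 0.813 in noRA_12h, 14.2 ± 0.960 in RA_12h, 25.8 ± 1.81 in noRA_24h and 22.9 ± 2.23 in RA_24h. Dll1 held 31.0% ± 0.347 of that sum in noRA_24h and 11.8% ± 0.337 in RA_24h. Jag2 held 45.6% ± 0.540 in noRA_24h and 67.1% ± 2.31 in RA_24h. Jag1 went from 32.7% ± 1.88 in ESC_0h to 14.2% ± 1.17 in RA_12h. At 24 h the ligand totals of libraries with and without RA overlapped, while their Dll1 shares did not.

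Hes1, a basic helix-loop-helix repressor and the classic Notch target, had the highest level of the 10 members. It stood at 59.99, 62.6 and 59.1 TPM in ESC_0h, 18.3, 25.1 and 22.4 in noRA_12h, 35.9, 35.9 and 37.4 in RA_12h, 16.4, 18.4 and 12.9 in noRA_24h, and 26.5, 25.0 and 25.4 in RA_24h. ESC_0h lay far above the rest, and each RA group lay above the noRA group of its time without overlap. Hes1 fell 2.76-fold in TPM from ESC_0h to noRA_12h (log2 difference -1.43, SE 0.12, limma adjusted p = 5.23e-07) and 3.81-fold to noRA_24h (-1.88, SE 0.12, adjusted p = 2.68e-08). With RA it was 1.66-fold higher at 12 h (0.72, SE 0.12, adjusted p = 8.07e-04) and 1.62-fold higher at 24 h (0.67, SE 0.12, adjusted p = 6.79e-04). These differences were 0.60 (adjusted p = 0.00335) without noRA_12h replicate 1 and 0.69 (adjusted p = 0.00131) without RA_24h replicate 2. The RA effect at 24 h minus that at 12 h was -0.04, with a 95% interval of -0.41 to 0.32 (adjusted p = 0.931). The RA groups nevertheless stayed below ESC_0h.

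Hey1, a related repressor and Notch target, was near the limit of detection outside ESC_0h. Its levels were 1.93, 1.99 and 1.97 TPM in ESC_0h and 0.353 to 1.58 TPM in the 12 other time course libraries, where the read depth per base was 0.453 to 2.01. ESC_0h lay above all of them, and the other groups overlapped one another. Hey1 fell from ESC_0h to noRA_12h (log2 difference -0.70, SE 0.21, limma adjusted p = 0.0141) and to noRA_24h (-0.61, SE 0.21, adjusted p = 0.0236). The first call ended with quantile normalization (-0.60, adjusted p = 0.0536). The second ended with a pseudocount of 0.1 (adjusted p = 0.0515) and without any 1 of 5 of the 6 libraries, with adjusted p up to 0.106 without noRA_24h replicate 3. Differences with RA were 0.01 at 12 h (95% interval -0.44 to 0.46) and -0.11 at 24 h (-0.56 to 0.34), and neither passed; the RA_12h libraries alone spread over 1.58, 0.353 and 0.765 TPM. Hes1 and Hey1 thus fell together from ESC_0h, and only Hes1 passed with RA, although the difference between the 2 genes was not tested.

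Streak markers were also read beside Hes1, since T (brachyury), a streak and mesoderm factor, had the pattern most like it. The Pearson r over the 15 libraries, computed on log2(TPM + 1) as a description of libraries that share groups and depth, was 0.979 for T, 0.975 for Tlx2 and 0.975 for Bmp7 with Hes1. The summed streak and paraxial mesoderm markers were 9.25 to 11.4 TPM in ESC_0h, 2.90 to 5.25 in noRA_12h and 8.38 to 9.46 in RA_12h. That sum was 2.25 to 3.43 TPM in noRA_24h and 3.89 to 5.40 in RA_24h. T itself stood at 7.83 to 9.23 TPM in ESC_0h, 0.454 to 1.02 in noRA_12h, 3.30 to 4.30 in RA_12h, 0 to 0.192 in noRA_24h and 1.14 to 1.54 in RA_24h. T held most of the sum in ESC_0h, but not in noRA_12h, noRA_24h or RA_24h. The rest of the sum was higher in RA_12h than in ESC_0h, while T and Hes1 were lower there. The likeness to Hes1 was thus that of T and not of the list. The part of such cells in the level of Hes1 was not tested. The genes most like Dll1 were Tdgf1 (0.961), Stc1 (0.948) and Hmox1 (0.946), and those most like Notch4 were Spire2 (0.974), Grm2 (0.971) and Pttg1 (0.969). Among members, Notch3 and Jag1 were the most alike pair (0.90), followed by Notch1 and Notch3 (0.82), and Notch4 ran opposite to Jag1 (-0.85) and Notch3 (-0.82).

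A wider list of 48 other pathway genes, fixed by role, was read with the same model; 37 were tested in the time course. From ESC_0h to noRA_12h, 4 rose and 10 fell, beside 22% and 20.4% of all genes tested, with a median of -0.05 against -0.04 over all genes. Rbpj, the DNA-binding partner of the receptors, rose most (log2 difference 1.69, SE 0.22, limma adjusted p = 3.94e-05), from 56.6, 56.9 and 67.7 TPM to 264, 143 and 201. It rose by 1.48 without noRA_12h replicate 1 (adjusted p = 1.49e-04), and its read depth per base also went from 7.13 to 9.05 in ESC_0h to 21.2 to 35.1 in noRA_12h. Ctbp2, a corepressor, rose too (0.81, SE 0.08, adjusted p = 3.23e-06). Dner, a Delta-like neuronal ligand, fell (-1.38, SE 0.11, adjusted p = 4.20e-07), as did the ubiquitin ligases Dtx1 (-1.0, SE 0.15) and Neurl1a (-0.93, SE 0.12) and the Notch target and feedback gene Nrarp (-0.85, SE 0.13), with adjusted p of 1.27e-04, 2.66e-05 and 1.63e-04. Nrarp stood at 4.53, 4.94 and 4.78 TPM in ESC_0h and at 1.59 to 2.51 TPM in all other time course libraries.

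From ESC_0h to noRA_24h, 6 of the 37 rose and 16 fell, beside 25.4% and 26.5% of all genes tested, with a median of -0.12 against 0.03 over all genes. Genes of glycosylation and cleavage, which prepare and cut the receptors, made up 8 of the 16 that fell, out of 13 tested, and 1 rose; their median was -0.37, and the list was not tested as a group. Among them were the protease Furin (log2 difference -1.03, SE 0.10, limma adjusted p = 2.43e-06) and the γ-secretase subunit Psen2 (-1.02, SE 0.12, adjusted p = 1.40e-05). Rbpj (1.88, SE 0.22, adjusted p = 1.11e-05) and the ubiquitin ligase Dtx4 (1.08, SE 0.13, adjusted p = 1.15e-05) rose. Dner (-1.51, SE 0.11, adjusted p = 1.26e-07) and Neurl1a (-1.29, SE 0.12, adjusted p = 8.66e-07) fell here too.

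With RA at 12 h, 2 of the 37 were higher and 5 lower, beside 10.2% and 7.19% of all genes tested, with a median of -0.12 against -0.01. With the GC and length correction 2 were higher and 10 lower. Dlk1, a Delta-like protein that lacks the activating domain of Notch ligands, was higher (log2 difference 1.23, SE 0.24, limma adjusted p = 0.00284), and so was Furin (0.53, SE 0.10, adjusted p = 0.00248). Lfng, a glycosyltransferase that modifies Notch (-0.67, SE 0.15, adjusted p = 0.00782), Ctbp2 (-0.56, SE 0.08, adjusted p = 2.76e-04) and Hes6 (-0.41, SE 0.09, adjusted p = 0.0084) were lower, the last not with quantile normalization (-0.31, adjusted p = 0.214). The coactivator Ep300 was also lower (-0.74, SE 0.20, adjusted p = 0.0229), and that call ended without noRA_12h replicate 1 (-0.52, adjusted p = 0.0973) and without 3 other libraries, and with only the groups compared (adjusted p = 0.0608).

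At 24 h with RA, 7 were higher and 5 lower, beside 22.8% and 12.5% of all genes tested, with a median of -0.07 against 0.02. Without RA_24h replicate 2 the counts were 10 and 9, and with the GC and length correction they were 5 and 10. Dlk1 stood at 4.46, 1.60 and 2.04 TPM in noRA_24h and 29.9, 23.7 and 19.6 in RA_24h, a difference of 2.84 (SE 0.24, limma adjusted p = 1.23e-06). Furin (0.72, SE 0.10, adjusted p = 1.29e-04) and Psen2 (0.60, SE 0.12, adjusted p = 0.00206) were higher with RA, having fallen without it. Ctbp2 (-1.10, SE 0.08, adjusted p = 2.95e-07), Hes6, a relative of Hes1 that counters it (-0.85, SE 0.09, adjusted p = 1.26e-05), and Dtx1 (-0.68, SE 0.15, adjusted p = 0.00322) were lower. Nrarp differed by 0.03 (95% interval -0.26 to 0.31, adjusted p = 0.892), so of the targets named here that fell from ESC_0h, Hes1 passed with RA while Hey1 and Nrarp did not; the differences between these genes were not tested. The RA effect changed between the times for 4 of the 37, 2 in each direction, beside 6.85% of all genes tested: Dlk1 (1.60, SE 0.34, adjusted p = 0.013), Maml1 (0.50, SE 0.14, adjusted p = 0.0437), Mib2 (-0.57, SE 0.11, adjusted p = 0.00734) and Ctbp2 (-0.54, SE 0.11, adjusted p = 0.0128). The call of Maml1 ended without any 1 of 10 of the 12 libraries, with adjusted p up to 0.11, and in 6 other settings.

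**Figure D4:**
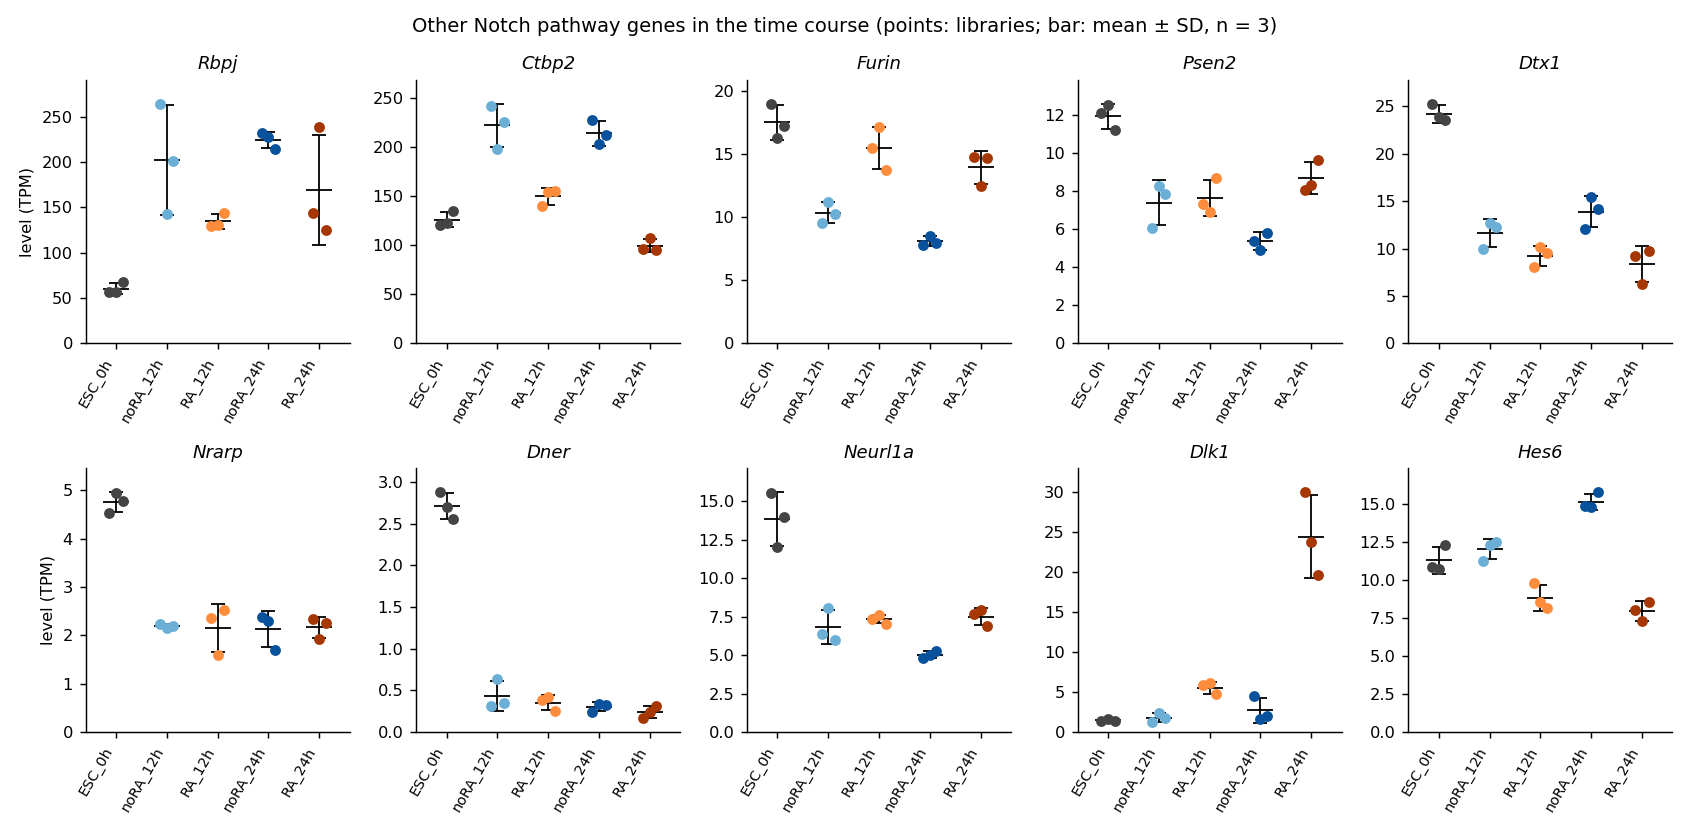
Levels of 10 other pathway genes in the 15 time course libraries, in TPM on linear axes that start at 0; points are libraries and bars are the mean ± SD of 3 libraries. Rbpj is lowest in ESC_0h at 56.6 to 67.7 TPM, Dlk1 is highest in RA_24h at 19.6 to 29.9 TPM, and Nrarp is lower than in ESC_0h in every other group.

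The second set asked how loss of Cyp26a1 changed cells after 24 h of RA. Of the 9 members tested there, 0 passed the limma threshold, where 9.99% of 12848 genes did, 3.34% upward and 6.65% downward; Notch4 and Jag2 were the 2 with an unadjusted p below 0.05. The median difference was -0.22 over members and -0.05 over all genes. The number of genes past the threshold, 1284, fell to 293 without WT_RA24h replicate 1 and was 3160 without KO_RA24h replicate 3, and no member passed in either fit. Hey1 did not reach 1 TPM in 3 libraries and was not tested, with levels of 0.487, 0.349 and 0.642 TPM in WT_RA24h and 0, 0.0871 and 0.293 in KO_RA24h.

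Notch4 was nearest to the threshold. It stood at 1.01, 1.32 and 1.34 TPM in WT_RA24h and 2.00, 2.03 and 2.54 in KO_RA24h, so the groups did not overlap. The log2 difference was 0.52 (SE 0.13, 95% interval 0.21 to 0.83, limma adjusted p = 0.0552), a 1.79-fold ratio of TPM. It passed in 5 other settings, among them median-of-ratios scaling (0.57, adjusted p = 0.0409), and in none of the fits without 1 library, where adjusted p was 0.061 to 0.208. Its share of receptor TPM was 7.49% ± 1.14 (SD, n = 3) in WT_RA24h and 14.4% ± 1.06 in KO_RA24h. The endothelial markers summed to 9.02 to 9.72 TPM in WT_RA24h and 11.2 to 12.4 in KO_RA24h, where Cdh5 was at 0.0983 to 0.244 TPM. Of these 4 markers, 3 had a mean of at least 1 TPM in WT_RA24h and 2 in KO_RA24h, and their part was not tested.

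Jag2 stood at 7.95, 7.67 and 8.03 TPM in WT_RA24h and 5.72, 7.06 and 5.82 in KO_RA24h, which did not overlap (log2 difference -0.31, 95% interval -0.57 to -0.05, limma adjusted p = 0.132), and the difference passed with the within-group axis (adjusted p = 0.0458). Dll1 stood at 1.72, 1.73 and 1.65 TPM against 1.24, 1.36 and 1.33, also without overlap (-0.22, 95% interval -0.48 to 0.03, adjusted p = 0.241). Hes1 stood at 32.1, 27.5 and 25.7 TPM against 34.4, 34.0 and 27.0, and these overlapped (0.15, 95% interval -0.15 to 0.46, adjusted p = 0.533). Notch1 (-0.25), Notch2 (-0.28), Jag1 (-0.23), Notch3 (-0.10) and Dll3 (0.01) had limma adjusted p from 0.243 to 0.980. Of these, Notch1 alone did not overlap between the groups. The share of all genes without overlap was not computed.

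**Figure D5:**
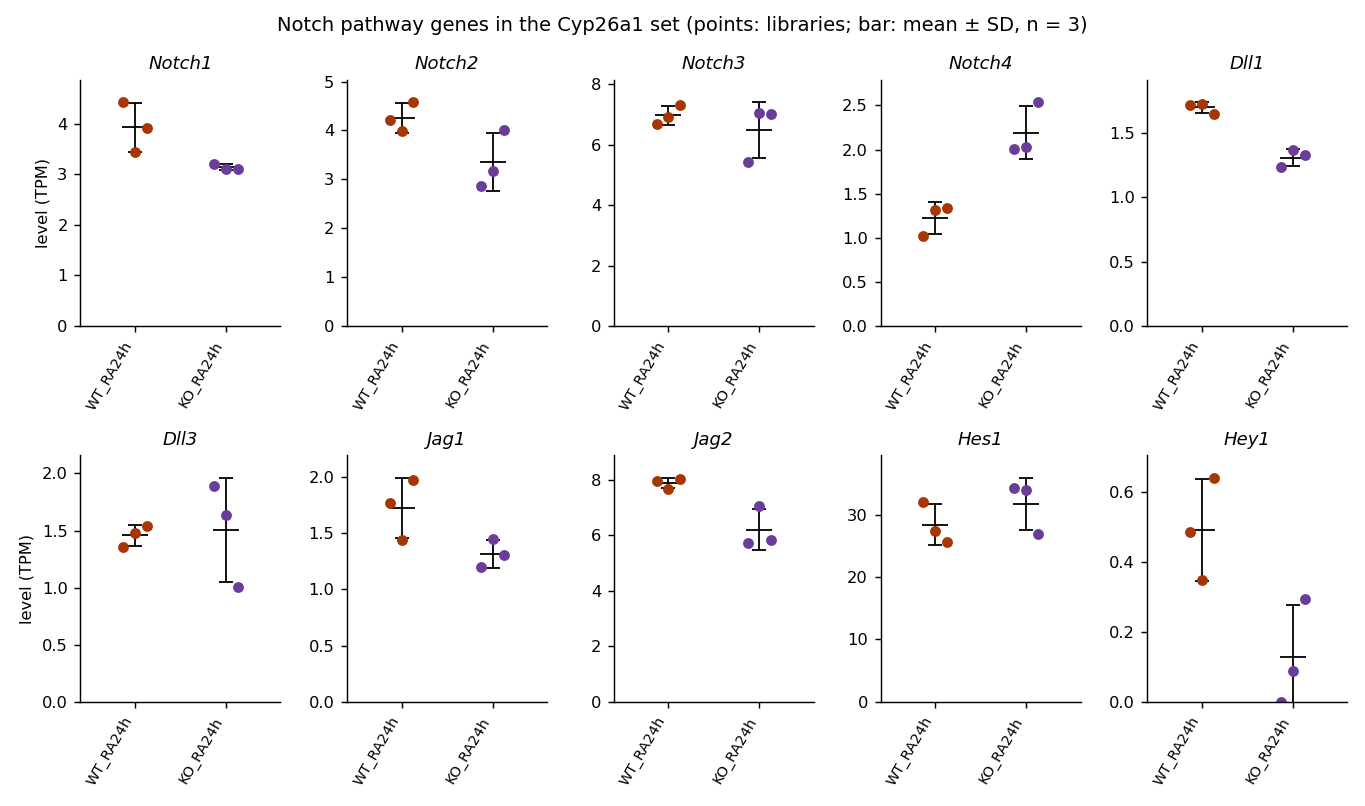
Levels of the 10 members in the 6 libraries of the second set, in TPM on linear axes that start at 0; points are libraries and bars are the mean ± SD of 3 libraries. Notch4 is at 1.01 to 1.34 TPM in WT_RA24h and 2.00 to 2.54 TPM in KO_RA24h, and Hes1 overlaps between the groups.

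Of the wider list, 36 were tested in the second set, and 3 were higher and 4 lower in the knockout, beside 3.34% and 6.65% of all genes tested, with a median of -0.11 against -0.05 over all genes. None passed without WT_RA24h replicate 1 or WT_RA24h replicate 3, and 0 higher and 1 lower did without WT_RA24h replicate 2. Without KO_RA24h replicate 1 there were 1 higher and 2 lower, and without KO_RA24h replicate 2 there were 0 and 2. Without KO_RA24h replicate 3, the library that lay apart, there were 4 and 6, and with median-of-ratios scaling 5 and 2. Dlk1 was at 14.5, 12.98 and 13.2 TPM in WT_RA24h and 7.09, 7.62 and 5.48 in KO_RA24h (log2 difference -0.92, SE 0.13, limma adjusted p = 0.00979). Furin (-0.68, SE 0.11, adjusted p = 0.0137) and Maml1 (-0.45, SE 0.10, adjusted p = 0.0391) were lower. The glycosyltransferase Rfng (0.45, SE 0.08, adjusted p = 0.0197), the ubiquitin ligase Mib2, which primes Notch ligands (0.40, SE 0.08, adjusted p = 0.0261), and Ctbp2 (0.36, SE 0.05, adjusted p = 0.0117) were higher. With quantile normalization the calls of Furin (adjusted p = 0.0502), Mib2 (adjusted p = 0.0564) and Maml1 (adjusted p = 0.164) ended. That of Mib2 also ended with FPKM (adjusted p = 0.0665), and that of Maml1 with FPKM, median-of-ratios scaling, no filter and the replicate number as a block (adjusted p = 0.0742 with the block). The endoderm markers summed to 242.6 to 259.9 TPM in WT_RA24h and 99.4 to 104.6 in KO_RA24h. ESC markers summed to 2186 to 2209 TPM in WT_RA24h and 2900 to 3192 in KO_RA24h, trophoblast markers to 14.02 to 17.8 and 20.96 to 23.0, and neural markers to 6.52 to 8.435 and 4.61 to 4.99. The part of these lists in the differences of the second set was not tested.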

How the data were processed

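Each of 21 libraries came as 1 gene abundance table. The submitters' processing notes name HISAT2, StringTie and the mm10 build, with no version. Of the columns, per the file headers, the deposited coverage is mean read depth per base. The authors' FPKM values, by header, are scaled for length and library size. The authors' TPM values were used for all levels and tests. Both sets were fitted separately and their levels never compared. Aligned sequence per library was estimated as the most common rounded ratio of coverage to FPKM. That ratio was shared by 11.8% to 13.0% of the genes used in time course libraries and 57.9% to 60.6% in the second set.

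Entries sharing an identifier were summed. Genes reaching 1 TPM in 3 or more libraries of their set entered limma 3.58.1 (R 4.3.3) on log2(TPM + 1), with group means, a trended prior and two-sided p-values adjusted by Benjamini-Hochberg over all of them; 0.05 was the threshold. The code was tested on simulated data. Members were always named, and of the wider list at most the 6 largest passing changes per comparison. The members and lists were chosen with earlier results of these data known. In the second set, deviations of same-numbered replicates had correlations of 0.32, 0.19 and 0.54. Those of different-numbered replicates ran from -0.46 to 0.27, above one of the former. A pairing by number was therefore not clear, and a block was run as an alternative. Other alternatives were a pseudocount of 0.1, other filters and scalings, FPKM, no trend, only the groups compared, the within-group axis, and leaving out each library. A GC and length correction was chosen after seeing the data.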

Additional observations from a re-analysis of the deposited data

Results flagged for a closer look

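Of the 10 members, 2 had an RA effect that differed between the times by limma's test of the difference itself. For Notch4 the RA effect at 24 h minus that at 12 h was -0.87 on log2(TPM + 1) (adjusted p = 0.00678), with effects of 0.88 at 12 h and 0.01 at 24 h. For Dll1 it was -0.96 (adjusted p = 0.0101), with effects of -0.33 at 12 h and -1.28 at 24 h. Notch4 therefore differed with RA at 12 h and Dll1 at 24 h. Both differences between the times passed without any 1 of the 12 libraries in turn. That of Notch4 did not pass with quantile normalization (adjusted p = 0.0918), and that of Dll1 did not pass with a pseudocount of 0.1 (adjusted p = 0.204).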

How the results depend on the processing

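Over 266 values of the 25 member changes that passed, computed under other settings, 243 kept direction and call, 23 lost the call and 0 reversed; of 162 values with 1 library left out, 142 kept both and 20 lost the call. Of the 34 that did not pass, 17 of 340 values passed and 16 reversed under other settings, and 1 and 20 of 252 did so with 1 library left out. The number of genes past the threshold moved from 2431 for RA at 12 h to 3955 with the within-group axis and 3688 with the GC and length correction, from 955 for the change of the RA effect to 599 with quantile normalization, 2932 with the axis and 1536 with the correction, and from 1284 for the knockout to 3647 with the axis. The number of members moved from 6 to 3 in noRA_12h with a mean of at least 5 TPM and with quantile normalization. In noRA_24h it moved from 7 to 4 with a mean of at least 5 TPM and to 10 with the within-group axis. With RA at 24 h it moved from 5 to 3 with quantile normalization and with only the groups compared. For the change of the RA effect it moved from 2 to 1 with a pseudocount of 0.1, a mean of at least 5 TPM and quantile normalization. For the knockout it moved from 0 to 1 with median-of-ratios scaling, quantile normalization, no trend and the correction, and to 2 with the axis. Of the wider list, calls went from 4 higher and 10 lower to 9 and 14 in noRA_12h with the axis, from 2 and 5 to 4 and 11 for RA at 12 h, from 7 and 5 to 11 and 8 for RA at 24 h, from 2 and 2 to 8 and 5 for the change of the RA effect and from 3 and 4 to 5 and 7 for the knockout, where quantile normalization gave 2 and 1 and FPKM 2 and 2. Fewer members could be tested with a mean of at least 5 TPM; for the other settings the cause was not tested. Upward calls were 33.4% of calls for the knockout and 50.0% with median-of-ratios scaling, 45.3% with quantile normalization and 51.9% with the correction; they were 58.7% and 64.7% for RA at 12 h and 24 h and 44.1% and 45.9% with the correction, and 60.8% for the change of the RA effect, 46.6% with quantile normalization and 44.9% with the correction.

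The directions that reversed were of changes that did not pass. With the correction they were noRA_12h Notch1 (0.13) and Jag2 (0.0061), RA at 12 h Notch2 (0.10), Jag2 (-0.027) and Hey1 (-0.13), RA at 24 h Notch4 (-0.20), the change of the RA effect for Notch1 (-0.062) and Notch3 (-0.037), and knockout Notch3 (0.045). With the axis they were noRA_12h Dll3 (-0.071), RA at 12 h Jag2 (-0.10) and Hey1 (-0.029), and RA at 24 h Notch4 (-0.085). RA at 12 h Hey1 was -0.073 with a pseudocount of 0.1, RA at 24 h Notch4 was -0.0064 with median-of-ratios scaling, and knockout Notch3 was 0.0024 with quantile normalization. With 1 library left out, signs crossed for noRA_12h Dll3 (-0.093 to 0.17), RA at 12 h Jag2 (-0.081 to 0.091) and Hey1 (-0.24 to 0.23), RA at 24 h Notch4 (-0.10 to 0.12) and Hey1 (-0.25 to 0.042), the change of the RA effect for Hes1 (-0.18 to 0.074) and Hey1 (-0.34 to 0.13), and knockout Notch3 (-0.15 to 0.0099) and Dll3 (-0.10 to 0.17). Genes past the threshold then ran from 3720 to 7428 for RA at 24 h and 641 to 1545 for the change of the RA effect, both highest without RA_24h replicate 2, and for the knockout were 293, 325 and 301 without WT_RA24h replicates 1, 2 and 3 and 677, 510 and 3160 without KO_RA24h replicates 1, 2 and 3; members ran from 3 to 5 for RA at 24 h, lowest without RA_24h replicate 3. An arm left with 2 libraries was fitted with the spread pooled over all groups.

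In the time course same-numbered libraries did not deviate together (correlations -0.53 to 0.28), and the labels do not say what a number shares. With the replicate block, genes past the threshold numbered 5534, 6822, 2066, 4424 and 714 in the 5 time course comparisons in the order given, and 1162 in the knockout, where the block changed no member's call. It ended the noRA_12h call of Dll1 (adjusted p = 0.0623) and the Maml1 calls of the knockout and of the change of the RA effect (0.0742 and 0.064).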
